A study of Arabidopsis thaliana with 2 samples.

Results

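Phloem-side procambium nuclei were examined in single-nucleus RNA-seq (snRNA-seq) of Arabidopsis thaliana inflorescences. A nucleus was a barcode with at least 1000 detected nuclear genes. A phloem-side nucleus had at least 1 unique molecular identifier (UMI) of 3 or more of 7 marker genes and no UMI of PXY. The 7 markers were SMXL5 (AT5G57130), SMXL4 (AT4G29920), AT3G52900, VETH2 (AT1G21810), AT3G44960, AT3G15680 and AT3G52360. The members were thus chosen by the UMIs of these genes and PXY in the same nuclei. This rule was met by 154 of 4545 nuclei at day 4 (3.39%, 95% exact binomial interval 2.88 to 3.96%) and by 161 of 4397 nuclei at day 3 (3.66%, 3.13 to 4.26%), together 315 of 8942. They were set against 604 (day 4) and 543 (day 3) PXY nuclei, which had at least 1 UMI of PXY, and against 3787 (day 4) and 3693 (day 3) other nuclei.

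The series held 1 library of day 4 of induction (stage 5 of flower development) and 1 library of day 3 (stage 4). Both came from plants of genotype pAP1:AP1-GR ap1-1 cal-1 in the ecotype Ler, and both were treated daily with 2 μM dexamethasone, so the libraries share the mutations, the transgene and the agent. In such plants the AP1 promoter drives a fusion of AP1 with a glucocorticoid receptor domain, and cauliflower-like masses of meristems form flowers together once dexamethasone lets the fusion enter the nucleus. About 20 inflorescences were pooled per library, stem and organ tissue below the meristems included, and nuclei were sorted on DAPI. The treatment text of both samples gives the fourth day as the time of collection, whereas the sample titles, used here, give day 4 and day 3. With 1 library per day there is no replicate, nuclei of 1 library are not replicates, and no test was made. All intervals cover counting error only.

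Procambium is the dividing tissue of the vascular bundle, from which xylem forms on one side and phloem on the other. PXY is the receptor kinase of the xylem side, and it binds the TDIF peptide that is encoded by CLE41 and CLE44 and made on the phloem side. SMXL3, SMXL4 and SMXL5 are nuclear proteins that act together in phloem formation, and SMXL5 marks the phloem side of the cambium in stems. DOF transcription factors of the PEAR group and receptor kinases such as BAM3 act in early phloem cells of the root.

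The depth of the nuclei and the content of the barcodes bear on each value given here. The sums rested on 458906 UMIs in phloem-side nuclei at day 4 and 520802 at day 3. Phloem-side nuclei had a median of 2496 UMIs at day 4 and 2214 at day 3, against 2281 and 2477 in PXY nuclei and 1743 and 1789 in other nuclei. Of the phloem-side nuclei, 20.8% (day 4) and 17.4% (day 3) were among the 8% deepest nuclei of their library, against 18.5% and 22.5% of PXY nuclei and 5.81% and 5.47% of other nuclei. A rule that asks for 3 detected genes is met more easily by deep nuclei and doublets, and the part of doublets was not tested, since the doublet caller marked 0 nuclei in either library. At day 3, 1 phloem-side nucleus held 32150 of the 520802 UMIs (6.17%). The libraries shared 6 barcodes of kept nuclei. In day 3 barcodes under 100 UMIs, which hold mostly free RNA, SMXL5 was at 117 UMIs per 1000000 UMIs of nuclear genes (CPM), against 102 CPM in other nuclei of day 3, and AT3G52360 and VETH2 were at 54.9 and 21.6 CPM, against 49.8 and 22.2 CPM. The other 4 markers were over 2-fold higher in these barcodes than in other nuclei: AT3G15680 was at 73.5 CPM, against 27.8 CPM, AT3G44960 at 56.8 CPM, against 27.0 CPM, SMXL4 at 32.3 CPM, against 12.5 CPM, and AT3G52900 at 29.4 CPM, against 12.7 CPM. The part of free RNA in the choice of members was not tested.

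The 7 markers chose the nuclei, so their values are a description. SMXL5 was detected in 120 of the 154 phloem-side nuclei at day 4 and in 126 of the 161 at day 3. AT3G52360, which encodes an uncharacterized protein, was detected in 107 and 108 of them, and AT3G15680, which encodes a zinc finger protein of the RanBP2 type, in 104 and 121. SMXL4 was detected in 93 and 81. AT3G44960, whose product the RefSeq annotation names shugoshin, a protector of chromosome cohesion, was detected in 68 and 62. VETH2, which encodes a vesicle tethering protein, was detected in 66 and 56, and AT3G52900, a gene of a family of unknown function, in 58 and 65. At least 1 of SMXL4 and SMXL5 was present in 140 of 154 and 151 of 161 nuclei, so 14 and 10 nuclei were members through the other 5 markers alone.

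Few nuclei carried many of the markers. Without PXY, exactly 3 markers were found in 79 nuclei at day 4 and 85 at day 3, just inside the threshold, and exactly 2 in 266 and 267 nuclei, just outside it. All 7 were found in 12 and 8 nuclei. Independent detection of the 7 genes and PXY at each nucleus's own depth would give 108 members at day 4 and 118 at day 3, and the observed numbers were 1.42 and 1.36 times these. With PXY nuclei included, 296 and 293 nuclei had 3 or more markers, 2.04 and 1.70 times the independent number. All 21 pairs of markers were found together more often than independence gives in both libraries, from 1.50 (day 4) and 1.35 (day 3) times for SMXL5 with AT3G52360 to 4.84 and 3.35 times for SMXL4 with AT3G52900. The markers were chosen with earlier results of these data known, so these ratios, and those with PXY below, are a description and no support for the rule. The independent number takes a single rate per gene over all nuclei and allows for no difference between cell types.

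The markers and PXY were not exclusive. Each of the 7 markers was found with PXY more often than independence gives, by 1.52 to 2.81 times at day 4 and 1.34 to 2.37 times at day 3. PXY was detected in 8.12% of day 4 nuclei with no marker and in 37.8% of those with 3. In day 3 nuclei the shares were 7.41% and 41.4%. With 4, 5, 6 and 7 markers they were 56.0, 55.3, 58.1 and 52.0% at day 4. At day 3 they were 44.3, 37.1, 65.0 and 65.2% along the same series. The condition on PXY therefore left out 142 nuclei at day 4 and 132 at day 3 that had 3 or more markers. These were deeper than the nuclei kept, with medians of 2854 and 4544 UMIs. PXY itself was sparse, with 1128 UMIs in the 604 PXY nuclei at day 4 and 872 in the 543 at day 3. A nucleus with no UMI of PXY may therefore still express it.

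The label was set beside a list of 24 genes of phloem-side specification that the rule did not use. The rule and this list were chosen with earlier results of these data known, so the list is not an independent check. The summed level of the 24 genes was 4990 CPM in phloem-side nuclei, 2950 CPM in PXY nuclei and 1025 CPM in other nuclei of day 4. At day 3 it was 3433, 2130 and 921 CPM in the same order of groups, against 1053 CPM in barcodes under 100 UMIs. Phloem-side nuclei were thus 1.69 (95% interval 1.61 to 1.78) and 1.61 (1.53 to 1.70) times above PXY nuclei, and 4.87 (4.65 to 5.10) and 3.73 (3.54 to 3.92) times above other nuclei. The level was higher the more markers a nucleus without PXY had. It was 787 CPM at 0 markers, 1239 at 1, 1960 at 2, 3297 at 3 and 6962 at 4 or more in day 4 nuclei. In day 3 nuclei it was 745, 1047, 1568, 2555 and 4364 CPM along the same series. Nuclei with 3 or more markers and PXY were at 4867 CPM at day 4 and 2847 CPM at day 3.

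**Figure D1:**
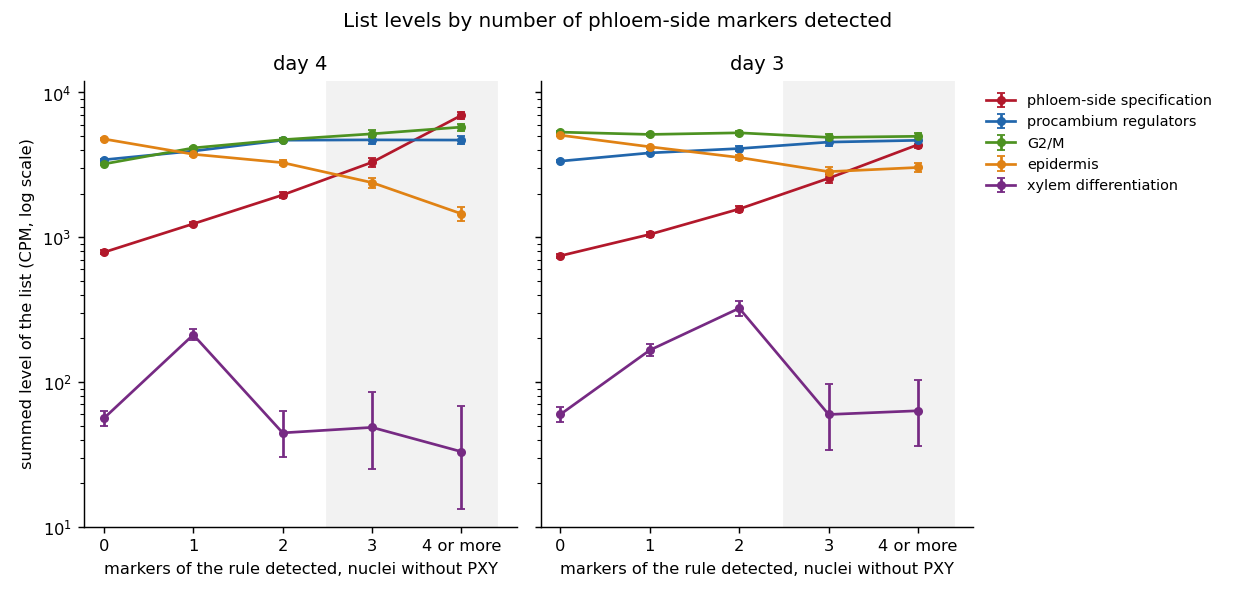
Summed level of 5 gene lists (CPM, log scale) in nuclei without PXY, by the number of the 7 markers detected, at day 4 (left) and day 3 (right). Points are sums over nuclei, bars are 95% exact Poisson intervals, and the shaded part holds the phloem-side nuclei. The phloem-side specification list is at 787 CPM at 0 markers and 6962 CPM at 4 or more in day 4 nuclei, while the epidermis list is at 4774 and 1453 CPM.

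Not every marker followed that list alone. Nuclei without PXY that had AT3G44960 were at 9351 CPM (day 4) and 10901 CPM (day 3) of a list of 21 G2/M genes, against 3617 and 5260 CPM in other nuclei. Nuclei with AT3G52900 as their only marker, 33 at day 4 and 48 at day 3, were at 4828 and 2033 CPM of a list of 25 genes of xylem differentiation, against 101 and 119 CPM in other nuclei. These values rest on few nuclei: 1 nucleus held 308 of the 335 UMIs at day 4, and 5 held 92.2% of the 245 UMIs at day 3. Nuclei with VETH2 as their only marker, 92 and 105, were at 6471 and 6917 CPM of a list of 11 epidermis genes, against 4338 and 4656 CPM in other nuclei. Nuclei without PXY that had SMXL4 were at 4133 and 3398 CPM of the phloem-side list, with 56.5 and 73.0 CPM of the xylem list. In the phloem-side nuclei themselves the xylem list was at 41.4 and 61.4 CPM, below its level in other nuclei. The epidermis list was at 1955 and 2934 CPM in them. The members were thus above other nuclei on the phloem-side list and below them on the xylem and epidermis lists. Members with AT3G44960 were also high on the G2/M list.

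Depth was set equal by thinning each nucleus to 1000 UMIs, which left out no nucleus. At least 2 genes of the phloem-side specification list were then found in 78.6% of phloem-side nuclei at day 4 (71.2 to 84.8%) and 70.8% at day 3 (63.1 to 77.7%). The shares were 52.0% and 49.7% in PXY nuclei and 20.4% and 19.7% in other nuclei. Without thinning they were 95.5% and 95.0%, against 79.1% and 79.4%, and 38.8% and 39.3%. PXY nuclei with 3 or more markers were at 81.0% (day 4) and 66.7% (day 3) after thinning, near the phloem-side nuclei. The thinned phloem-side nuclei ranged over 0 to 13 genes of the list at day 4 and 0 to 11 at day 3, with a median of 3 at both days. No gene of the list was left in 14 of 154 and 24 of 161 of them, so the members were not uniform.

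The comparison with other nuclei asked what sets the phloem-side nuclei apart from the bulk of the inflorescence. A gene was called when its CPM + 10 was at least 2-fold higher or lower in both libraries. Of 15573 genes with at least 50 UMIs over both groups of nuclei in each library, the rule genes left out, 149 were higher (0.957%) and 44 were lower (0.283%). Which direction had more genes depended on the settings: with a pseudocount of 1 CPM, 223 were higher and 280 lower, and with day 4 alone 305 were higher and 454 lower. Of the 24 phloem-side specification genes, 21 had enough UMIs, and 14 of these were called higher and 0 lower. Their median log2 ratio was 1.87 at day 4 and 1.69 at day 3, against -0.05 and -0.04 over all genes compared.

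The called genes of the list included the DOF transcription factors PEAR1, PEAR2 and DOF6. PEAR1 was at 333 CPM at day 4 and 198 CPM at day 3 in phloem-side nuclei, at 111 and 107 CPM in PXY nuclei, and at 15.1 and 16.9 CPM in other nuclei. That is 22.1-fold and 11.7-fold over other nuclei. PEAR2 was at 185 and 84.5 CPM in phloem-side nuclei, 55.6 and 45.9 CPM in PXY nuclei, and 8.67 and 6.78 CPM in other nuclei. TMO6, a DOF gene that acts downstream of the auxin response factor MP in the embryo, was at 366 and 294 CPM, against 212 and 155 CPM in PXY nuclei and 57.7 and 59.6 CPM in other nuclei. DOF6 was 20.4-fold and 9.98-fold over other nuclei, and OBP2 7.78-fold and 9.26-fold. DAG1 and DAG2, DOF genes known from seed germination, were also called higher. PEAR1 was found in 52 of 154 and 48 of 161 phloem-side nuclei, so most members had no UMI of it.

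Receptors and their peptides came next. BAM3, the receptor kinase that perceives the CLE45 peptide in root protophloem, was at 682 and 382 CPM in phloem-side nuclei, 314 and 151 CPM in PXY nuclei, and 85.4 and 54.2 CPM in other nuclei. It was found in 91 of 154 and 92 of 161 phloem-side nuclei. CLE45 itself was at 93.7 and 51.8 CPM in phloem-side nuclei, 30.3 and 15.3 CPM in PXY nuclei, and 2.26 and 2.62 CPM in other nuclei. Its 41.5-fold and 19.8-fold ratios over other nuclei stand outside the call, since it missed the minimum of UMIs there. CLE41 and CLE44, the TDIF genes, were not called over other or PXY nuclei. CLE41 was found in 30 of 154 and 26 of 161 phloem-side nuclei. It was found in 50 of 604 and 81 of 543 PXY nuclei, and in 340 of 3787 and 313 of 3693 other nuclei. CLE44 was at 89.3 and 65.3 CPM in phloem-side nuclei, 35.4 and 61.7 CPM in PXY nuclei, and 63.2 and 63.4 CPM in other nuclei, so its 2.53-fold ratio over PXY nuclei at day 4 was 1.06 at day 3. RPK2, a receptor kinase, was the 1 gene of the list that was lower than in other nuclei in both libraries, at 0.72-fold and 0.75-fold.

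Membrane and phosphoinositide genes of early phloem were also called higher. BRXL4, a member of the BRX family, was at 652 and 563 CPM in phloem-side nuclei, 633 and 450 CPM in PXY nuclei, and 157 and 138 CPM in other nuclei. CVP2, a phosphoinositide 5-phosphatase needed for vein continuity, was at 392 and 290 CPM, against 177 and 135 CPM in PXY nuclei and 56.8 and 63.3 CPM in other nuclei. Its relative CVL1 was 3.80-fold and 2.85-fold over other nuclei, and near equal to PXY nuclei at 1.11-fold and 0.93-fold. OPS, a polar membrane protein of the phloem, was 2.86-fold and 2.53-fold over other nuclei, and the kinase PAX 3.87-fold and 2.50-fold. SMXL3, the relative of the markers SMXL4 and SMXL5, was at 85.0 and 46.1 CPM in phloem-side nuclei, 48.8 and 24.6 CPM in PXY nuclei, and 16.0 and 7.37 CPM in other nuclei.

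**Figure D2:**
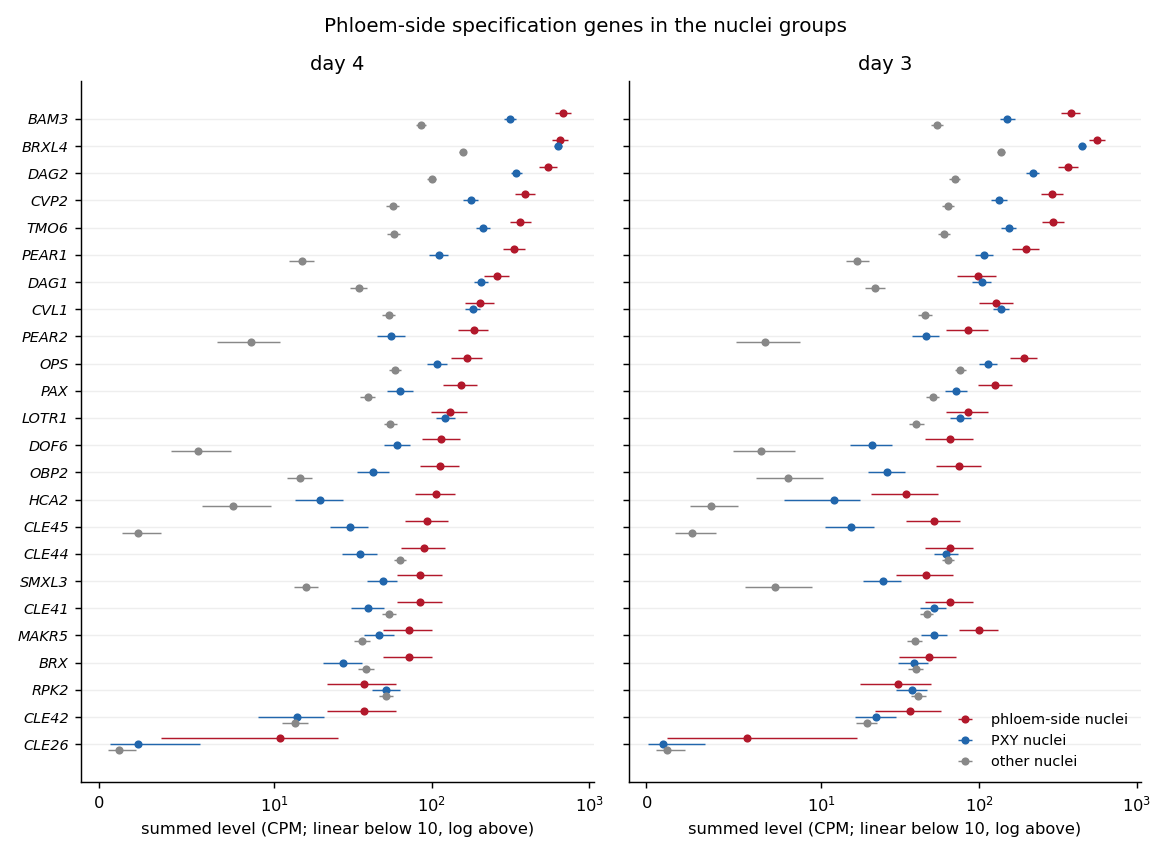
Summed level (CPM, linear below 10 and log above) of the 24 phloem-side specification genes in phloem-side (red), PXY (blue) and other nuclei (grey), at day 4 (left) and day 3 (right), with 95% exact Poisson intervals. BAM3 is at 682 CPM in phloem-side, 314 CPM in PXY and 85.4 CPM in other nuclei of day 4.

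Outside the lists, the genes with the largest ratios over other nuclei included several with no assigned role in phloem in the annotation used. ACI1, an interactor of the fruit regulator ALC, was at 619 and 515 CPM in phloem-side nuclei, 227 and 198 CPM in PXY nuclei, and 24.5 and 30.9 CPM in other nuclei. ROPGEF3, an activator of ROP GTPases, was at 346 and 165 CPM, against 91.5 and 35.7 CPM in PXY nuclei and 6.91 and 7.14 CPM in other nuclei. MEE47 was 22.7-fold and 18.4-fold over other nuclei. AT5G25490 belongs to the same annotated zinc finger family as the marker AT3G15680, and was 25.1-fold and 15.7-fold over other nuclei. GATA19, a GATA transcription factor, was 20.4-fold and 14.6-fold. AT4G06955, a noncoding RNA gene, was 18.4-fold and 19.4-fold, but it overlaps AT4G03025, and the assignment of reads between them is uncertain. AT2G01990 and AT1G79420 completed the first 10 genes with PEAR1 and BAM3.

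Genes lower than in other nuclei were led by GSTF12, which acts in anthocyanin transport, at 6.54 and 1.92 CPM in phloem-side nuclei and 64.4 and 44.4 CPM in other nuclei. TGG2, a myrosinase of the glucosinolate system, had 0 UMIs at day 4 and 1 UMI at day 3 in phloem-side nuclei, and was at 17.2 and 22.2 CPM in other nuclei. Against a floor of 3 UMIs this was at least 2.63-fold lower at day 4. TGG2 was found in only 21 of 3787 other nuclei at day 4 and 20 of 3693 at day 3, and 1 nucleus held 38.7% of its day 4 UMIs there. GSTF12 was found in 94 and 87 of the other nuclei, against 2 of 154 and 1 of 161 phloem-side nuclei. Both genes met the minimum of UMIs only through the other nuclei, so their calls as lower rest on few nuclei of that group and are a description. CYP72A13, TPPJ, AT5G07800, BEN1, AT3G55240, AT3G21755, AGT and MO1 completed the first 10. The overlap of AT3G21755 with 2 neighbouring genes makes its counts uncertain. All 11 epidermis genes were lower in both libraries, and 1 of them, ATML1, a regulator of epidermal identity, was called, against 0.283% of all genes compared. The epidermis list summed to 0.45 (day 4) and 0.63 (day 3) times its level in other nuclei.

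The comparison with PXY nuclei set the phloem-side nuclei against all nuclei with PXY, whatever their markers. That group held 142 (day 4) and 132 (day 3) nuclei with 3 or more markers, among 604 and 543. The groups thus differ in number of markers as well as in PXY, and the part of each was not tested. Of 10911 genes compared, 22 were called higher (0.202%) and 68 lower (0.623%). The minimum of UMIs was set on both groups together. PXY nuclei held 1781165 (day 4) and 2154396 (day 3) UMIs, against 458906 and 520802 in phloem-side nuclei. Genes high in PXY nuclei could thus pass through that group alone, and genes that go with PXY are lower by the rule. The larger number of lower genes is therefore no result. Of the 21 phloem-side specification genes compared, 18 were above 1-fold in both libraries, 1 was below it in both, and 4 were called higher: OBP2, BAM3, CLE45 and CVP2. OBP2 was at 113 and 74.9 CPM in phloem-side nuclei and 42.7 and 26.0 CPM in PXY nuclei, 2.66-fold (1.83 to 3.83) and 2.88-fold (1.86 to 4.41). BAM3 was 2.17-fold (1.88 to 2.50) and 2.53-fold (2.11 to 3.02), and CLE45 3.09-fold (2.02 to 4.70) and 3.38-fold (1.96 to 5.80). The median log2 ratio of the list was 0.83 and 0.73, against -0.02 and -0.01 over all genes compared.

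ROPGEF3 had the largest ratio over PXY nuclei that held in both libraries, 3.79-fold at day 4 and 4.62-fold at day 3. It was detected in 44 of 154 and 40 of 161 phloem-side nuclei, and in 58 of 604 and 35 of 543 PXY nuclei. MEE47 was 3.44-fold and 3.62-fold, AT4G06955 2.97-fold and 5.31-fold, ACI1 2.72-fold and 2.60-fold, and AT5G25490 4.97-fold and 2.79-fold. GSL04, a callose synthase gene, was at 122 and 78.7 CPM in phloem-side nuclei, 36.5 and 27.4 CPM in PXY nuclei, and 51.0 and 27.5 CPM in other nuclei. AT1G68430 and AT1G79420 completed this group. The number of genes called higher depended on how strictly the nuclei were chosen: it was 8 with at least 1500 genes per nucleus, 77 with at least 4 markers, and 98 when membership was set after thinning.

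Genes of xylem were among those lower than in PXY nuclei. Since PXY defined both groups, genes that go with PXY fall on this side by the rule. VND2, a NAC factor of xylem vessels, was at 4.36 and 1.92 CPM in phloem-side nuclei and 66.8 and 56.2 CPM in PXY nuclei. VND1 was at 2.18 and 3.84 CPM, against 49.4 and 47.8 CPM. ACL5, the thermospermine synthase that restrains vessel maturation, was at 13.1 and 40.3 CPM, against 240 and 243 CPM. These 3 genes met the minimum of 50 UMIs through the PXY nuclei, where they were high, so their call as lower followed from the minimum and is no count for the list. The other 22 genes of the list fell below it. The whole xylem list of 25 genes was at 0.07 (0.04 to 0.12) and 0.12 (0.08 to 0.17) times its level in PXY nuclei, and 17 of the 25 genes had 0 UMIs in phloem-side nuclei at each day.

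AT2G22620, a rhamnogalacturonate lyase gene, had the lowest ratio of CPM + 10 over PXY nuclei. It was at 17.4 and 19.2 CPM in phloem-side nuclei and 253 and 245 CPM in PXY nuclei. AGAL2, an alpha-galactosidase gene, was at 8.72 and 38.4 CPM, against 334 and 309 CPM. TBL33, a gene of xylan acetylation, had 0 UMIs in phloem-side nuclei of both days and was at 48.3 and 35.7 CPM in PXY nuclei, at least 7.39-fold and 6.20-fold lower against a floor of 3 UMIs. 4CL1, an enzyme of lignin precursor synthesis, was at 15.2 and 1.92 CPM, against 99.9 and 65.5 CPM. AT5G22860, AT5G07800 and AT1G75280 completed the first 10. TBL33, 4CL1, AT5G22860 and AT1G75280 met the minimum of UMIs through the PXY nuclei, where they were higher. TBL33 was found in 28 of 604 and 31 of 543 PXY nuclei. Genes that go with PXY also fall on this side by the rule, so the calls of these genes as lower are a description. The levels of AT2G22620 and AGAL2 in phloem-side nuclei, 8.72 to 38.4 CPM, stood against 20.4 to 36.3 CPM in other nuclei.

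**Figure D3:**
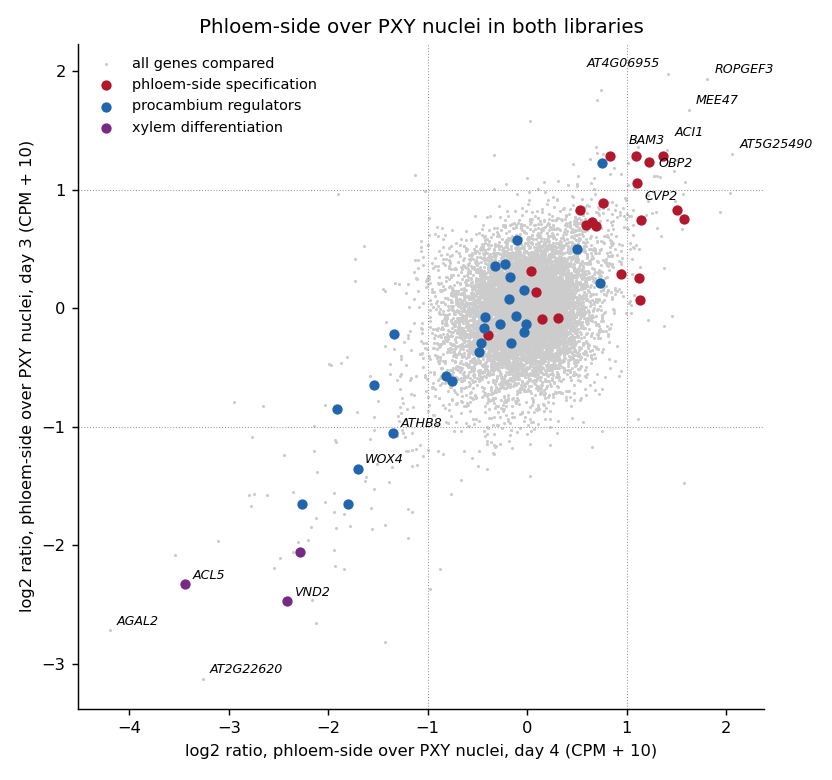
Log2 ratio of phloem-side over PXY nuclei (CPM + 10) at day 4 (horizontal) and day 3 (vertical), 1 point per gene compared, rule genes left out. Dotted lines mark the 2-fold limits. Of 10911 genes, 22 lie beyond them at the upper right and 68 at the lower left, and the purple points are the 3 xylem genes that met the minimum of UMIs through the PXY nuclei.

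The procambium regulators were mostly lower than in PXY nuclei. Of 31 genes on the list, 27 could be compared, and 4 were called lower and 0 higher: WOX4, ATHB8, T5L1 and WAT1 were lower. WOX4 and T5L1 met the minimum of UMIs only through the PXY nuclei, where they were high. Genes that go with PXY also fall on this side by the rule. The 4 calls are therefore no count for the list, and were not set against the share of all genes compared. In both libraries 18 of the 27 were below 1-fold and 3 above it. WOX4, the homeobox gene that acts after PXY in the cambium, was at 39.2 and 51.8 CPM in phloem-side nuclei, 150 and 148 CPM in PXY nuclei, and 24.6 and 32.7 CPM in other nuclei. ATHB8, an HD-ZIP III factor of preprocambial cells, was at 133 and 115 CPM, against 353 and 249 CPM in PXY nuclei and 38.2 and 37.8 CPM in other nuclei. WAT1, a vacuolar auxin transporter, was at 384 and 313 CPM, against 1360 and 1004 CPM in PXY nuclei and 189 and 163 CPM in other nuclei. T5L1, a bHLH partner of LHW, was at 15.3 and 26.9 CPM, against 112 and 106 CPM in PXY nuclei. The list as a whole was at 0.68 and 0.81 times its level in PXY nuclei and 1.27 and 1.29 times its level in other nuclei.

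Against other nuclei, 6 of the 28 procambium regulators compared were called higher: ATHB8, RUL1, PXC2, VH1, LAX2 and LBD4. These are 21.4% of them, against 0.957% of all genes compared. RUL1, a receptor-like kinase of the cambium, was at 133 and 115 CPM in phloem-side nuclei, 74.7 and 43.6 CPM in PXY nuclei, and 20.09 and 13.2 CPM in other nuclei. It was thus above PXY nuclei as well, 1.78-fold (1.29 to 2.43) and 2.64-fold (1.88 to 3.69), without reaching the call. LBD4, a factor of the border between phloem and procambium, was at 137 and 74.9 CPM, against 78.6 and 63.1 CPM in PXY nuclei and 27.8 and 32.2 CPM in other nuclei. ANT, a growth regulator of organs and cambium, was at 584 and 499 CPM, against 411 and 350 CPM in PXY nuclei and 333 and 338 CPM in other nuclei. WOX14, a relative of WOX4, had too few UMIs for the comparison, at 19.6 and 3.84 CPM in phloem-side nuclei and 1.12 and 0.93 CPM in PXY nuclei.

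Genes of phloem differentiation were low and uneven. Of 20 genes, 7 had enough UMIs for the comparison with other nuclei, and APL, a MYB factor of phloem identity, was the 1 called higher. The share over all genes compared was 0.957%, and 1 gene is no count for the list. APL was at 168 and 65.3 CPM in phloem-side nuclei, 36.5 and 33.0 CPM in PXY nuclei, and 19.5 and 15.0 CPM in other nuclei. NAC020, a NAC factor of early sieve elements, was at 61.0 and 15.4 CPM, against 10.7 and 6.96 CPM in PXY nuclei and 1.38 and 0.83 CPM in other nuclei. NAC045, NAC086 and NEN4, which act in the last steps of sieve element maturation, had 0 UMIs in the phloem-side nuclei of both days. They were near absent from the other groups too. At day 4 they were found in 0, 1 and 0 of 604 PXY nuclei and in 4, 5 and 0 of 3787 other nuclei. The lack of UMIs was thus not particular to the phloem-side nuclei.

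At least 1 UMI of this list was found in 62 of 154 phloem-side nuclei at day 4 and 38 of 161 at day 3. SUC2, the sucrose transporter of companion cells, was found in 4 of 154 phloem-side nuclei at day 4 and 2 of 161 at day 3, and 1 nucleus held 59.1% of its day 4 UMIs. Over the list, 5 nuclei held 43.6% of the UMIs at day 4 and 41.5% at day 3. The summed list was 2.90-fold (2.53 to 3.31) over other nuclei at day 4 and 1.05-fold (0.83 to 1.31) at day 3. Over PXY nuclei it was 2.75-fold and 0.87-fold. The day 3 ratios reached 1.83 and 1.48 with at least 4 markers, and the ratio over PXY nuclei was 1.47 without the 8% deepest nuclei.

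The G2/M list of 21 genes was at 5452 and 4939 CPM in phloem-side nuclei, 3412 and 3525 CPM in PXY nuclei, and 3617 and 5260 CPM in other nuclei. Over PXY nuclei this was 1.60-fold (1.52 to 1.67) and 1.40-fold (1.34 to 1.47), and 15 of 19 genes compared were above 1-fold in both libraries. Of these 19 genes 0 were called, near the shares over all genes compared (0.202% higher and 0.623% lower). Over other nuclei it was 1.51-fold (1.45 to 1.57) at day 4 and 0.94-fold (0.90 to 0.98) at day 3. With the other nuclei reweighted to the members' depth the day 3 ratio was 1.06, and with membership set after thinning it was 1.08, so the day 3 direction was not stable. Among phloem-side nuclei, 5 held 34.4% of the list's UMIs at each day. The marker AT3G44960 divided the members here. The 68 and 62 members that had it were at 8795 and 7437 CPM of the list, against 2358 and 3380 CPM in the 86 and 99 members without it. Among the members with AT3G44960, 5 nuclei held 44.4% of the list's UMIs at day 4 and 50.1% at day 3. With AT3G44960 left out of the rule, the ratio over other nuclei was 1.21 at day 4. CYCA2;1, an A-type cyclin, was called higher over other nuclei, at 82.8 and 36.5 CPM in phloem-side nuclei, 30.3 and 8.82 CPM in PXY nuclei, and 13.1 and 9.51 CPM in other nuclei.

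The SMXL relatives outside the phloem group were described on a list of 16 genes of SMXL and of strigolactone or karrikin signalling. Of these, 0 of 14 genes compared with other nuclei and 0 of 12 compared with PXY nuclei were called. Over all genes compared, 0.957% were called higher and 0.283% lower over other nuclei, and 0.202% and 0.623% over PXY nuclei. The 0 calls are near these shares and are no result about the list. SMXL7, a target of strigolactone signalling, was at 71.9 and 51.8 CPM in phloem-side nuclei, 129 and 106 CPM in PXY nuclei, and 82.4 and 73.3 CPM in other nuclei, 0.56-fold (0.37 to 0.80) and 0.49-fold (0.31 to 0.73) over PXY nuclei. The karrikin receptor gene KAI2 was at 32.7 and 44.2 CPM, against 33.1 and 33.4 CPM in PXY nuclei. The list summed to 0.92 (0.82 to 1.02) and 1.08 (0.97 to 1.19) times its level in other nuclei.

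The remaining lists held few called genes, and so did all genes compared. The shares over all genes were 0.202% higher and 0.623% lower over PXY nuclei, and 0.957% and 0.283% over other nuclei. Counts of 0 are near these shares and are no result about the lists. The S phase list of 13 genes was 1.16-fold (1.08 to 1.25) and 1.21-fold (1.13 to 1.29) over PXY nuclei and 1.25-fold and 1.06-fold over other nuclei, with 0 genes called. The floral meristem list of 11 genes was 0.80-fold and 1.02-fold over PXY nuclei and 0.67-fold and 0.82-fold over other nuclei, with 0 called. AP1, which the transgene also encodes, was at 305 and 399 CPM in phloem-side nuclei, 332 and 355 CPM in PXY nuclei, and 438 and 437 CPM in other nuclei. The cortex and mesophyll list of 9 genes was 0.85-fold and 0.88-fold over PXY nuclei and 0.68-fold and 0.82-fold over other nuclei. NIP5;1, a boron channel gene, was called lower over PXY nuclei, but it met the minimum of UMIs through those nuclei. It was found in 11 of 154 and 10 of 161 phloem-side nuclei, against 64 of 604 and 61 of 543 PXY nuclei. Among phloem-side nuclei of day 3, 1 nucleus held 38.9% of its UMIs. A list of 6 genes of mitochondrial retrograde signalling was 0.71-fold and 0.94-fold over PXY nuclei and 0.47-fold and 0.57-fold over other nuclei, with 0 called.

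**Figure D4:**
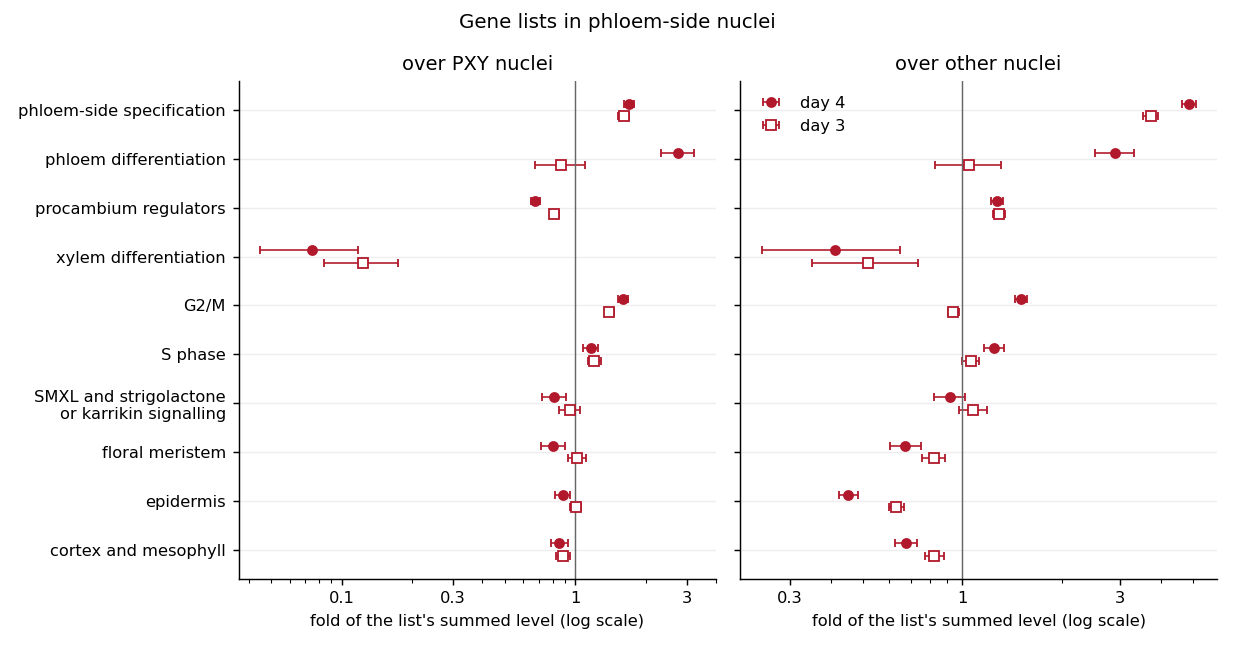
Fold of the summed level of 10 gene lists (log scale) in phloem-side over PXY nuclei (left) and over other nuclei (right), at day 4 (filled) and day 3 (open), with 95% exact intervals for counting error. The phloem-side specification list is at 1.69 and 1.61 over PXY nuclei and 4.87 and 3.73 over other nuclei, and the xylem list is at 0.07 and 0.12 over PXY nuclei.

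The last comparison set phloem-side nuclei of day 4 against those of day 3. The day cannot be told apart from the library, since sequencing platform and PCR cycles differed too. Of 5730 genes with at least 50 UMIs over both libraries, 68 were at least 2-fold higher at day 4 (1.19%) and 67 lower (1.17%). Scaled by TMM factors, the numbers were 47 higher and 84 lower. Of the 21 phloem-side specification genes compared, 19 were above 1-fold, and PEAR2, HCA2 and DAG1 were called higher. HCA2, a DOF gene, was at 107 CPM at day 4 and 34.6 CPM at day 3, and DAG1 at 259 and 97.9 CPM. The list summed to 1.45-fold (1.37 to 1.55) in phloem-side nuclei, against 1.11-fold (1.08 to 1.15) in other nuclei. PXY nuclei had the list at 2950 CPM at day 4 and 2130 CPM at day 3, so they too were higher at day 4. The 7 markers that chose the members summed to 1.43-fold in phloem-side nuclei.

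APL was called higher at day 4, and the phloem differentiation list summed to 3.56-fold (2.76 to 4.62) in phloem-side nuclei, against 1.28-fold (1.19 to 1.39) in other nuclei. NAC028, a NAC gene, was at 124 CPM at day 4 and 30.7 CPM at day 3 in phloem-side nuclei, and at 3.39 and 3.09 CPM in other nuclei. It was found in 23 of 154 and 12 of 161 phloem-side nuclei, and 1 nucleus held 29.8% of its day 4 UMIs. ALAAT2 was at 93.7 and 15.4 CPM in phloem-side nuclei, but also at 122 and 42.6 CPM in other nuclei, and ABCC3 likewise was at 161 and 48.0 CPM, and at 225 and 65.8 CPM. AT1G61660 and AAR3 completed the 5 highest ratios. The ratios between the groups of nuclei were not tested.

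Among genes lower at day 4, SMP1, a gene of a splicing factor, was at 15.2 CPM at day 4 and 90.2 CPM at day 3 in phloem-side nuclei, and at 63.0 and 75.9 CPM in other nuclei. BAM5, a beta-amylase gene, was at 54.5 and 192 CPM, against 186 and 193 CPM in other nuclei. LTP6, a lipid transfer protein gene, was at 279 and 977 CPM, and was lower in other nuclei too, at 491 and 1133 CPM. CYP78A5, a gene of organ growth, was at 41.4 and 165 CPM, against 112 and 221 CPM in other nuclei, and AT2G32150 completed the 5. On the lists, LTP1, CO2, AP3, REM34 and HTB11 were called lower and UPOX higher. Leaving out the 8% deepest nuclei gave 39 genes higher and 38 lower.

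**Figure D5:**
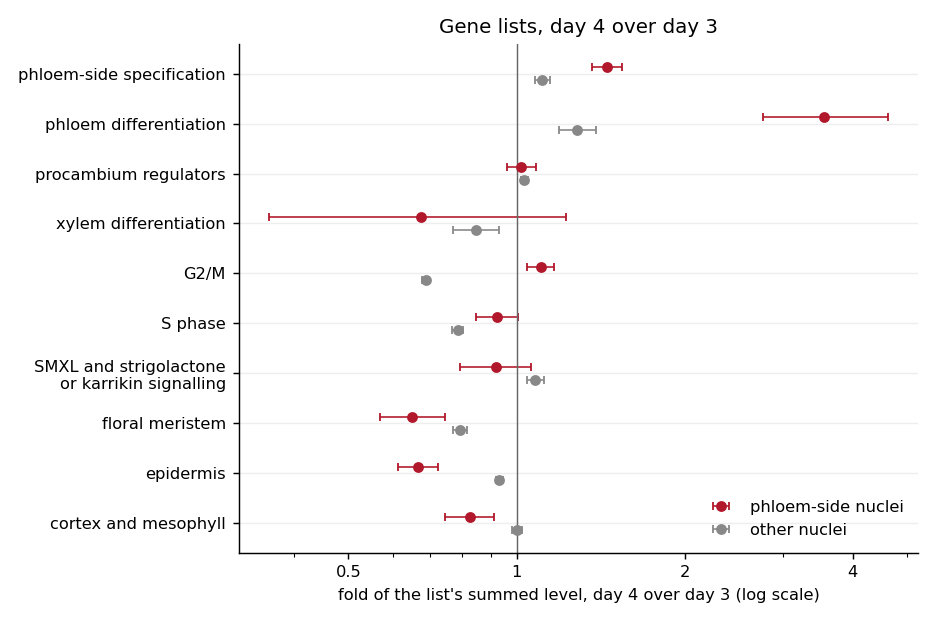
Fold of the summed level of 10 gene lists at day 4 over day 3 (log scale) in phloem-side nuclei (red) and other nuclei (grey), with 95% exact intervals for counting error. The phloem differentiation list is at 3.56 in phloem-side nuclei and 1.28 in other nuclei, and the epidermis list at 0.67 and 0.93.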

How the data were processed

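Nuclei stained with DAPI were sorted and put through the 10x Chromium system. The authors deposited raw UMI counts per gene and barcode, made with Cell Ranger 3.1.0 per the submitters' processing notes and the Araport11 annotation. No step against free RNA or doublets is stated, and no genome build, so no coordinates are given. The day 4 file held 7716 barcodes and the day 3 file 652188 with a UMI, with 13590463 and 31908972 UMIs in all. Organelle genes were left out. Groups came from the sample titles, and nuclei were assigned by the marker rule.

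UMIs were summed per group and library and scaled to CPM. Genes were called at 2-fold of CPM + 10 in both libraries, with at least 50 UMIs per library in the groups compared together, since 1 library per day allows no test. The log2 scale with 10 CPM added understates changes of low genes, and was tested on simulated data. Sums had exact Poisson, shares exact Clopper-Pearson and folds exact conditional binomial intervals of 95%. Scrublet (scanpy 1.11.5) marked 0 of 4545 and 0 of 4397 nuclei, so the 8% highest scores were left out as an alternative. TMM factors came from edgeR 4.0.16 (R 4.3.3), for scaling only, and other values from Python 3.11.15 (numpy 2.4.6, scipy 1.17.1, pandas 2.3.3). Symbols came from the lists or from a TAIR10.1 gene table.

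Genes named are the markers, members of 12 lists, and the 10 largest ratios per direction over PXY and over other nuclei by the smaller of both libraries (5 by day). The marker rule and the lists were chosen with earlier results of these data known. Alternatives changed the marker number, gene minimum, depth, doublet filter, pseudocount, UMI minimum and scaling.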

Additional observations from a re-analysis of the deposited data

Results flagged for a closer look

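The following ratios of phloem-side nuclei lay on opposite sides of 1 in the libraries, each with its counting interval on its own side, and the difference between the libraries was not tested. Over other nuclei, the G2/M list was 1.51-fold at day 4 and 0.94-fold at day 3, but the day 3 value was 1.06 with the other nuclei reweighted to the members' depth and 1.08 with membership set after thinning. Of its genes, KN, the cytokinesis syntaxin, was 1.43-fold and 0.82-fold, CDC20.1, an activator of the anaphase-promoting complex, 1.51-fold and 0.85-fold, and CDC20.2 1.36-fold and 0.89-fold. Over PXY nuclei, SMP1 was 0.22-fold at day 4 and 1.51-fold at day 3, the histone gene HTB11 0.70-fold and 1.28-fold, BAM5 0.43-fold and 1.35-fold, and the amino acid permease gene AAP2 1.99-fold and 0.26-fold. AAP2 was found in 4 of 154 phloem-side nuclei at day 4 and 2 of 161 at day 3, and 1 nucleus held 60.0% of its 20 day 4 UMIs. For BAM5, 1 of the 10 nuclei that had it at day 4 held 40.0% of its UMIs.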

How the results depend on the processing

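No paired analysis was possible because each day had 1 library and no replicate numbers. The ratios of the phloem-side specification list kept their direction under all 10 alternatives run on them, between 1.44 and 2.36 (day 4) and 1.43 and 2.23 (day 3) over PXY nuclei, and between 4.03 and 6.37 and 3.27 and 5.56 over other nuclei. Of 27 named or listed genes called over PXY nuclei, 9 missed 2-fold under at least 1 alternative, and of 41 called over other nuclei 13 did, with no change of direction. The alternatives without the 8% deepest nuclei (for the comparisons) and without AT3G44960 or AT3G52900 in the rule were chosen after seeing the data. Why the values below moved was not tested, except that a rule or filter which keeps fewer nuclei or genes lowers the numbers by construction.

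The number of phloem-side nuclei (154 at day 4, 161 at day 3) was 420 and 428 with at least 2 markers, 75 and 76 with at least 4, 95 and 89 after thinning, 192 and 221 with at least 500 genes, 97 and 101 with at least 1500 genes, 122 and 133 without the 8% deepest nuclei, 126 (day 4) without the 8% highest Scrublet scores, 128 (day 4) without AT3G44960 in the rule and 135 (day 3) without AT3G52900.

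Over PXY nuclei, genes called higher (22) were 78 with day 4 alone, 55 with day 3 alone, 77 with at least 4 markers, 98 after thinning and 8 with at least 1500 genes. Genes called lower (68) were 182 and 146 with day 4 and day 3 alone and 41 with at least 100 UMIs. Over other nuclei, genes called higher (149) were 305 with day 4 alone and 272 after thinning. Genes called lower (44) were 280 with a pseudocount of 1 CPM, 454 and 139 with day 4 and day 3 alone, 156 with at least 4 markers, 231 after thinning, 25 with at least 1500 genes, 106 without the 8% highest Scrublet scores and 194 without the 8% deepest nuclei. For day 4 over day 3, genes higher (68) and lower (67) were 126 and 101 with a pseudocount of 1 CPM, 225 and 201 with at least 20 UMIs, 16 and 29 with at least 100 UMIs, and 39 and 38 without the 8% deepest nuclei.

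The phloem-side specification list over PXY nuclei at day 4 and day 3 was at 2.36 and 2.05 with at least 4 markers, 2.33 and 2.23 after thinning, 1.44 and 1.43 with at least 1500 genes, 1.83 and 1.78 without the highest Scrublet scores, 1.93 and 1.76 without the deepest nuclei, 1.89 and 1.73 without AT3G44960, and 1.75 (day 3) without AT3G52900. Over other nuclei it was at 6.37 and 4.49, 6.36 and 5.56, 4.03 and 3.27, 5.64 and 4.26, 6.20 and 4.76, 5.32 and 3.97, and 4.00 (day 3) in the same order of settings, and at 5.10 and 4.02 with the compared nuclei reweighted to the members' depth. The G2/M list over other nuclei at day 3 turned to 1.06 with that reweighting and to 1.08 after thinning.

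With 1 library per day the spread between samples is not known, and at these depths 1 UMI equals 2.18 CPM (day 4) and 1.92 CPM (day 3) in phloem-side nuclei. Lists of low genes, such as phloem and xylem differentiation, therefore rest on few UMIs and few nuclei.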
